A study of Homo sapiens with 12 samples.

Results

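RNA-seq of oral squamous cell carcinoma (OSCC) cells was compared between the libraries numbered 1 and the libraries numbered 2. Of the 12 samples in the series, 4 are RNA-seq libraries, and the members of each number were taken from the sample titles and from the columns of the count table. Number 1 comprised 1 library of cells treated with 100 nM rapamycin and 1 library of untreated control cells, and number 2 comprised the same pair. Rapamycin inhibits mTOR and was used by the study to induce autophagy. All 4 libraries came from cultured OSCC cells without any genetic change that the labels name, so the numbers are compared within each treatment, with treatment as a block.

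The cell line behind each number is not settled. HSC3 and CAL33 are established human OSCC cell lines. By their sample labels, the rapamycin RNA-seq libraries are HSC3 for either number and the control libraries are CAL33 for either number. The 8 m6A libraries of the series are numbered otherwise, with HSC3 as number 1 and CAL33 as number 2 whether treated or not. Across 15826 genes, the Pearson correlation of log2 CPM (counts scaled to a common library size) was 0.966 between both libraries of number 1 and 0.956 between both libraries of number 2. It lay between 0.761 and 0.811 for the 4 pairs of libraries with different numbers, the pairs with the same treatment included. The sources are therefore called number 1 and number 2 below. Each number has 2 libraries that differ in treatment and that nothing in the labels describes as separate cultures, so the p-values measure only the spread between these libraries after the shared effect of treatment is removed.

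OSCC arises from the stratified squamous epithelium of the mouth. The basal cells of that epithelium make the keratins KRT5 and KRT14 under the transcription factor TP63, and maturing cells exchange them for other keratins and for proteins of the cornified envelope. Carcinoma cell lines differ in how much of this programme they retain and in how far they express genes of mesenchymal cells.

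Totals ranged from 18492273 to 23763098 counts per library, of which 5.71% to 7.94% came from mitochondrially encoded genes. Of 58302 gene identifiers, 15826 passed the filter on low counts. They were tested by edgeR's quasi-likelihood method, and a gene is said to be called at a Benjamini-Hochberg adjusted p under 0.05 over all tested genes. Values are CPM scaled by TMM factors and are given for the control library first and the rapamycin library second. Fold changes are number 1 over number 2, log2 values carry their standard error (SE), and each number has n = 2 libraries. Where a number had no count of a gene, the fold is a lower bound against 3 counts over both libraries. With 1 to 3 counts, the ratio is given with a 95% Poisson interval, which covers counting error only.

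Both sources expressed epithelial genes, and the listed markers of other cell types ranged from 0 to 41.6 CPM. Of the 8 listed epithelial markers, 4 were higher in number 1, 3 were higher in number 2 and 1 was not called. KRT8 was at 3755 and 1913 CPM in number 1 and at 1140 and 739 CPM in number 2. KRT14 had no count in number 1, and KRT19 was at 2.24 and 2.03 CPM in number 2. EPCAM, an epithelial adhesion molecule, was at 272 and 218 CPM in number 1 and at 165 and 157 CPM in number 2. CDH1, which encodes E-cadherin, was at 334 and 304 CPM in number 1 and at 180 and 221 CPM in number 2 (1.6-fold higher in number 1, adjusted p = 0.0403). The leukocyte marker PTPRC, the fibroblast markers DCN, COL1A2, COL3A1 and DPT, the endothelial markers KDR, CLDN5 and EMCN, and the melanocyte markers MLANA, TYR and SOX10 had no count in any of the 4 libraries, which allows up to 3 counts in each. Other members of these lists had counts. The largest were CSF1R at 20.7 and 15.7 CPM in number 1, CDH5 at 25.6 and 41.6 CPM in number 2, VWF at 4.35 and 1.97 CPM in number 2, COL1A1 at 22.0 and 29.3 CPM in number 1 and at 8.79 and 28.4 CPM in number 2, and PMEL at 2.75 to 4.44 CPM in the 4 libraries.

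The numbers differed in 5899 genes, 37.3% of those tested. Of these, 3203 (20.2%) were higher in number 1 and 2696 (17.0%) were higher in number 2. At least a 2-fold difference was found for 2734 of the first (17.3%) and for 2101 of the second (13.3%), and the median size of the log2 fold change was 1.91 over all called genes. At least an 8-fold difference was fitted for 1316 genes higher in number 1 and for 554 genes higher in number 2. Of all tested genes, 844 had 3 counts or fewer in each library of number 2 and 256 in each library of number 1. Such genes were tested through the other number alone, which fixes the direction of any call. This holds for the members of every list below. Both libraries of a number lay above both libraries of the other for 9331 genes (59.0%), among them 5633 of the called genes (95.5%). The difference had the same sign in the control pair and in the rapamycin pair for all 5899 called genes and for 78.2% of all tested genes. A call rests on the difference that both treatments share. The shares of called genes with the same sign and with libraries that do not overlap therefore follow from the fit. They are no support for the calls. The SD over genes of the log2 difference between numbers was 1.88 in the control pair and 1.99 in the rapamycin pair, against 0.74 and 0.94 for the log2 difference between treatments within number 1 and within number 2. With treatment left out of the model, 3057 genes were called. A fit on 3 libraries leaves no residual degree of freedom with the treatment block, so each library was left out with number alone in the model, which changes the model and the libraries together. Beside the 3057, 2232 and 2258 genes were then called without the rapamycin and without the control library of number 1, and 3937 and 4504 without the rapamycin and without the control library of number 2. No gene called in the full fit was called in the other direction in any of these fits.

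**Figure D1:**
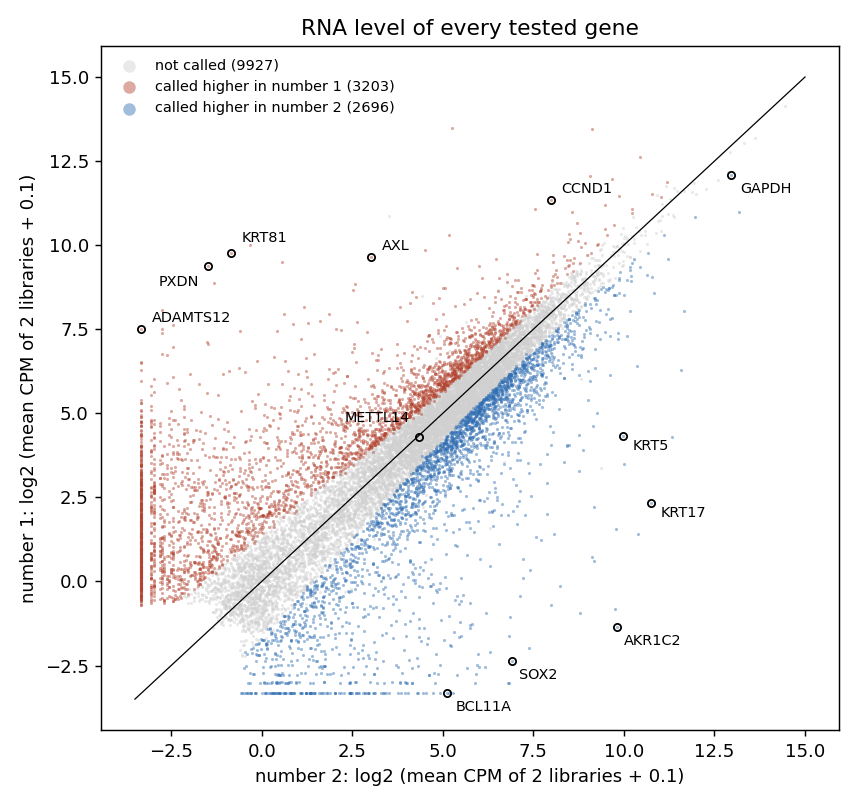
RNA level of each of the 15826 tested genes in number 2 (x axis) and number 1 (y axis), as log2 of the mean CPM of 2 libraries plus 0.1, with the line of equal levels. Genes called higher in number 1 are red, genes called higher in number 2 are blue and all others are grey, and the columns of points at the lower and left edges are genes with no count in a number, such as ADAMTS12 and BCL11A.

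The genes furthest apart were on in 1 source and at or near 0 in the other. ADAMTS12, a secreted metalloprotease (chr5:33523535-33891990), was at 192 and 172 CPM in number 1 and had no count in number 2, which makes it at least 2549-fold higher in number 1 (adjusted p = 4.35e-16). PXDN, a peroxidase that crosslinks collagen IV, was at 605 and 730 CPM in number 1 and at 0.296 and 0.219 CPM in number 2 (2469-fold, log2 fold change 11.27 ± 0.43 SE, adjusted p = 8.68e-17). BMPER, a secreted regulator of bone morphogenetic proteins, was at 226 and 312 CPM against 1 count in each library of number 2 (5582-fold, interval 1545 to 46092). Both libraries of number 1 were close to each other for these genes. The serine protease PRSS21 (71.0 and 108 CPM), the inflammasome protein NLRP2 (65.3 and 59.2 CPM), the cytoskeletal regulator DPYSL3 (46.3 and 31.8 CPM) and the cell surface protein TENM1 (33.2 and 35.7 CPM) likewise had no count in number 2.

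In the other direction, KCNQ1, a potassium channel subunit (chr11:2445008-2849105), was at 22.9 and 54.3 CPM in number 2 and had no count in number 1, at least 495-fold apart (adjusted p = 9.60e-13). The secreted airway and oral protein BPIFB1 was at 19.5 and 52.2 CPM and the transcriptional repressor BCL11A at 18.7 and 50.4 CPM in number 2, both with no count in number 1. BMP7, a bone morphogenetic protein, was at 94.5 and 127 CPM in number 2 against 1 count in the libraries of number 1 together (4414-fold, interval 792 to 174338). CP, the copper-binding plasma protein ceruloplasmin, was at 0.554 and 0.368 CPM in number 1 and at 581 and 1151 CPM in number 2 (1726-fold, log2 fold change -10.75 ± 0.44 SE, adjusted p = 2.69e-15). For each of these 5 genes the rapamycin library of number 2 was above its control library.

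The promoters of ADAMTS12 and BPIFB1 are shown because these genes had the largest log2 fold change in each direction among the named genes with an entry in the RefSeq promoter table (GRCh38.p14). That of ZNF468 is shown for the group of zinc finger genes described below. Each sequence runs from 250 bases before to 50 bases after the start of the gene, 5′ to 3′ on the strand of the gene, with CG pairs, the sites of DNA methylation in human cells, in capitals.
ADAMTS12 (chr5:33891941-33892240, minus strand): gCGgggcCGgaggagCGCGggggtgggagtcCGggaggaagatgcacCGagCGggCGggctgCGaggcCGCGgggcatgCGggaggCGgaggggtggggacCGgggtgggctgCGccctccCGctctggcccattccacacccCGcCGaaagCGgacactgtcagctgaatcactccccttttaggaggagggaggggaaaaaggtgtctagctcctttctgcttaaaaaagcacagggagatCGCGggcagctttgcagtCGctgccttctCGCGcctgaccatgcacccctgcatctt
BPIFB1 (chr20:33282964-33283263, plus strand): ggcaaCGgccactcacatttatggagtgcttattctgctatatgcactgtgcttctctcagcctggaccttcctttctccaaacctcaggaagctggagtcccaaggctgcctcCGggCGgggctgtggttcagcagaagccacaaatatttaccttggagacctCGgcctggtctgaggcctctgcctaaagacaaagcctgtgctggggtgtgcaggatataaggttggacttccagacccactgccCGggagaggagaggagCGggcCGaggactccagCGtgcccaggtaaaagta
ZNF468 (chr19:52857570-52857869, minus strand): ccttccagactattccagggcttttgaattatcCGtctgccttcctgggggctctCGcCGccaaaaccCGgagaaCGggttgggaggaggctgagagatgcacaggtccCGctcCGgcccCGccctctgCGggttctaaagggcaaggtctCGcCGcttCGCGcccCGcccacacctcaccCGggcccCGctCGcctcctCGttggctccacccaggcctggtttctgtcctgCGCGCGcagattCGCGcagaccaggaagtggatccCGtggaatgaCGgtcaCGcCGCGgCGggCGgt
The ADAMTS12 promoter held 24 CG pairs, the BPIFB1 promoter 8 and the ZNF468 promoter 30, beside a median of 26.0 over the promoters of 10576 tested protein-coding genes. Of the motifs searched on both strands, TATAAA was in none of the 3 promoters and in 5.68% of all of them, and TGANTCA was in the ADAMTS12 promoter and in 4.70% of all of them. An entry was found for 79.5% and 77.5% of the protein-coding genes at least 2-fold higher in number 1 and in number 2, against 82.0% of all those tested. Genes without an entry are missing from each group, and no comparison of promoters between the groups is drawn.

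The keratin lists were called in opposite directions. Of 10 tested keratins of stratified epithelium, 9 were higher in number 2 and 0 were higher in number 1. Their median log2 fold change was -6.39 (-6.03 with genes at 0 taken at their bound), beside a median of 0.03 over all tested genes. Of the 10, 2 were at or near 0 in each library of number 1. These were tested through number 2 alone, which fixes their direction. Over the alternatives that kept all libraries, 4 to 10 members were called higher in number 2 and 0 higher in number 1. KRT5, the basal keratin of squamous epithelium, was at 34.2 and 6.10 CPM in number 1 and at 1703 and 327 CPM in number 2 (51.6-fold, log2 fold change -5.69 ± 0.32 SE, adjusted p = 4.62e-14). KRT17, a keratin of activated keratinocytes, was at 4.89 and 5.05 CPM in number 1 and at 1346 and 2119 CPM in number 2 (339-fold, log2 fold change -8.41 ± 0.37 SE, adjusted p = 4.84e-16). KRT13, the keratin of maturing oral mucosa, was at 0.369 and 0.473 CPM in number 1 and at 633 and 248 CPM in number 2 (972-fold). KRT14, the usual partner of KRT5, had no count in number 1 and was at 9.34 and 1.26 CPM in number 2. The libraries of the 2 numbers did not overlap for any of these 4 keratins, while KRT5, KRT13 and KRT14 were lower in the rapamycin than in the control library of number 2.

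Of 7 tested keratins of simple epithelium and hair-type keratins grouped with them, 6 were higher in number 1 and 0 were higher in number 2 (median log2 fold change 2.44). KRT81 was at 725 and 1016 CPM in number 1 and at 0.465 and 0.439 CPM in number 2 (1855-fold, log2 fold change 10.86 ± 0.42 SE, adjusted p = 8.68e-17). KRT19 was at 319 and 255 CPM against 2.24 and 2.03 CPM, and KRT7 at 970 and 1545 CPM against 32.8 and 38.5 CPM. KRT18, which pairs with KRT8 in simple epithelia, was at 2123 and 1894 CPM in number 1 and at 291 and 472 CPM in number 2 (5.41-fold). KRT18 was thus found in both sources, whereas KRT81 was near 0 in number 2. KRT81 and KRT86 are closely related genes, and how the counting shared reads between such copies is not given in the sources used here.

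**Figure D2:**
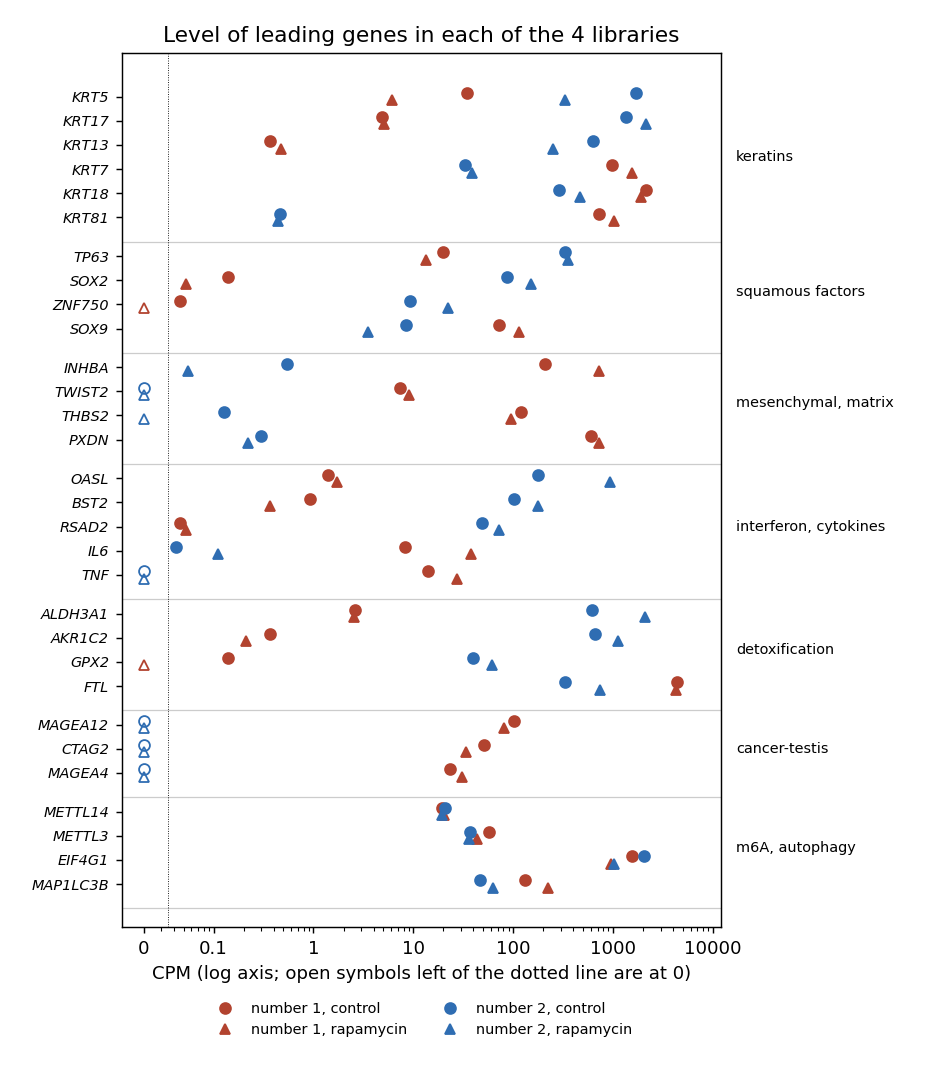
CPM of leading genes in each of the 4 libraries on a log axis (number 1 red, number 2 blue, control circles, rapamycin triangles, open symbols at 0), grouped by function. Red and blue symbols lie on opposite sides for the keratins, squamous factors, mesenchymal and interferon genes, whereas METTL14 lies between 19.2 and 20.9 CPM in all 4 libraries.

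Of 30 tested transcription factors of the squamous lineage, 17 were higher in number 2 and 6 were higher in number 1. Of the 30, 2 had 3 counts or fewer in each library of number 1, which fixes their direction. TP63 was at 19.7 and 13.5 CPM in number 1 and at 332 and 353 CPM in number 2 (21-fold, log2 fold change -4.39 ± 0.30 SE, adjusted p = 4.34e-12). SOX2, a squamous lineage factor located with TP63 on the long arm of chromosome 3, was at 0.139 and 0.0526 CPM in number 1 and at 87.7 and 151 CPM in number 2 (1106-fold). ZNF750, a driver of keratinocyte differentiation, had 1 count in number 1 and was at 9.21 and 22.4 CPM in number 2 (608-fold, interval 109 to 24002). The members higher in number 1 included SOX9, a factor of progenitor cells (71.4 and 114 CPM against 8.45 and 3.51 CPM), TBX3 (22.1 and 17.0 CPM against 1.01 and 1.48 CPM) and FOXE1 (66.4 and 52.0 CPM against 5.28 and 4.17 CPM). Members of the list were thus called in both directions. With the control library of number 1 left out and number alone in the model, 6 members were called higher in number 2, and with the rapamycin library of number 1 left out 11 were.

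Genes of keratinocyte maturation were called in both directions. Of 26 tested genes of the cornified envelope and of keratinocyte differentiation, 12 were higher in number 2 and 9 were higher in number 1. Of the 26, 3 had 3 counts or fewer in each library of number 2 and 4 in each library of number 1, which fixes their direction. The calmodulin-like protein CALML3 (28.3 and 17.8 CPM in number 2) and the protease inhibitor SERPINB13 (12.3 and 2.03 CPM in number 2) had no count in number 1. SERPINB2, another protease inhibitor, was at 9.28 and 43.1 CPM in number 1 and had 2 counts in number 2 (525-fold, interval 145 to 4338). Of 13 tested S100 genes, which encode small calcium-binding proteins, 8 were higher in number 2 and 2 were higher in number 1. Of the 13, 2 had 3 counts or fewer in each library of number 1, which fixes their direction. S100A9, a subunit of calprotectin, was at 0.508 and 1.10 CPM in number 1 and at 184 and 420 CPM in number 2 (369-fold, log2 fold change -8.53 ± 0.37 SE, adjusted p = 4.84e-16).

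Cell-cell junction genes were called in both directions. Of 21 tested genes of desmosomes and adherens junctions, 12 were higher in number 2 and 3 were higher in number 1 (median log2 fold change -0.72). The desmosomal linker PPL was at 118 and 122 CPM in number 1 and at 633 and 552 CPM in number 2 (4.94-fold), and the adhesion receptor NECTIN1 at 46.2 and 37.8 CPM against 591 and 445 CPM (12.3-fold). Of 32 tested tight junction and apical genes, 9 were higher in number 2 and 5 in number 1, and 18 were not called, so that 43.8% were called against 37.3% of all tested genes. Their median log2 fold change of -0.17 changed sign when the rapamycin library of number 2 was left out. ELF3, an epithelial transcription factor of that list, was at 32.0 and 32.4 CPM in number 1 and at 370 and 851 CPM in number 2. CLDN7, a tight junction protein, was at 113 and 205 CPM in number 1 and at 12.8 and 36.1 CPM in number 2.

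Most mesenchymal genes tested were higher in number 1. Of 30 tested genes of mesenchymal cells and epithelial-mesenchymal transition (EMT), 20 were higher in number 1 and 2 were higher in number 2, with a median log2 fold change of 4.07. Of the 30, 5 had 3 counts or fewer in each library of number 2. These were tested through number 1 alone, which fixes their direction. Over the alternatives that kept all libraries, 9 to 21 members were called higher in number 1 and 1 to 2 higher in number 2. INHBA, a subunit of activin, was at 207 and 728 CPM in number 1 and at 0.549 and 0.0549 CPM in number 2 (1131-fold, log2 fold change 10.14 ± 1.37 SE, adjusted p = 0.0334). The growth factor receptor PDGFRB (10.3 and 14.8 CPM in number 1) and the EMT transcription factor TWIST2 (7.39 and 9.04 CPM) had no count in number 2. The members named next were chosen after their values were seen, as usual markers of EMT. VIM, the intermediate filament vimentin, was at 544 and 385 CPM in number 1 and at 6.72 and 4.94 CPM in number 2 (log2 fold change 6.31 ± 0.32 SE, adjusted p = 8.63e-15). FN1, which encodes fibronectin, was at 8205 and 14823 CPM against 33.9 and 42.6 CPM, and CDH2, which encodes N-cadherin, at 61.7 and 87.4 CPM against 0.803 and 0.439 CPM. SERPINE2 (18.8 and 18.9 CPM against 72.5 and 39.6 CPM) and LOX (9 and 4.63 CPM against 11.2 and 29.1 CPM) were higher in number 2. The 8 fibroblast markers summed to 25.8 and 32.3 CPM in number 1 and to 8.87 and 28.5 CPM in number 2, most of it COL1A1, which was not called, and LUM was at 3.46 and 2.58 CPM in number 1 against 0 and 0.110 CPM.

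Of 41 tested collagens, laminins and other matrix proteins, 22 were higher in number 1 and 10 were higher in number 2. Of the 41, 3 had 3 counts or fewer in each library of number 2 and 1 in each library of number 1, which fixes their direction. THBS2, a thrombospondin, was at 120 and 94.9 CPM in number 1 and had 3 counts in number 2 (1510-fold, interval 517 to 7320), and COL6A1, a chain of collagen VI, was at 187 and 161 CPM against 0.549 and 1.92 CPM. The members higher in number 2 included COL17A1, the collagen of hemidesmosomes, at 15 and 8.47 CPM in number 1 and at 350 and 302 CPM in number 2 (28.8-fold), and the fibrillin FBN2 at 92.6 and 50.1 CPM in number 2. Of 39 tested matrix proteases and their inhibitors, 14 were higher in number 1 and 10 in number 2. The sheddase ADAM8 was at 124 and 239 CPM in number 1 and at 4.22 and 3.89 CPM in number 2. The collagenase MMP1 was at 1.43 and 0.526 CPM in number 1 and at 52.4 and 37.6 CPM in number 2, and the stromelysin MMP10 at 0.277 and 0.158 CPM against 57.9 and 29.1 CPM. The matrix metalloproteases named by the rule thus lay on both sides, with MMP19 at 6.14 and 7.94 CPM in number 1 and 1 count in number 2. Of 19 tested integrins, 7 were higher in number 1 and 4 in number 2, among the latter ITGB6 (20.4 and 12.9 CPM against 65.1 and 76.9 CPM) and ITGB4 (413 and 392 CPM against 573 and 926 CPM).

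The sources differed in which receptors and ligands they expressed. Of 29 tested receptor tyrosine kinases, 11 were higher in number 1 and 6 were higher in number 2. AXL was at 577 and 1033 CPM in number 1 and at 6.46 and 9.49 CPM in number 2 (98.6-fold, log2 fold change 6.62 ± 0.33 SE, adjusted p = 5.31e-15). FGFR3, a fibroblast growth factor receptor, was at 2.31 and 5.42 CPM in number 1 and at 168 and 140 CPM in number 2 (42.3-fold, log2 fold change -5.40 ± 0.38 SE, adjusted p = 2.96e-09). EGFR, named after its values were seen, was at 7601 and 14866 CPM in number 1 and at 670 and 440 CPM in number 2 (log2 fold change 4.29 ± 0.39 SE, adjusted p = 4.43e-07). Of 21 tested ligands of the epidermal and fibroblast growth factor families, 8 were higher in each number. AREG, a ligand of EGFR, was at 44.9 and 170 CPM in number 1 and at 16.9 and 18.3 CPM in number 2. Of 41 tested Wnt and Notch pathway members, 18 were higher in number 2 and 7 in number 1. The receptor NOTCH3 was at 8.87 and 24.2 CPM in number 1 and at 294 and 421 CPM in number 2, and its ligand family member DLL1 at 0.185 and 0.947 CPM against 30.6 and 60.5 CPM. SFRP1, a secreted Wnt antagonist, was at 33.9 and 16.3 CPM in number 1 and at 0.296 and 0.274 CPM in number 2. Of 29 tested YAP and TEAD target genes, 10 were higher in number 1 and 5 in number 2, with ANKRD1 at 89.4 and 178 CPM against 0.296 and 0.219 CPM.

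Most interferon-stimulated genes tested were higher in number 2. Of 49 tested, 32 were higher in number 2 and 2 were higher in number 1, with a median log2 fold change of -1.71. OASL, an antiviral protein of the oligoadenylate synthetase family, was at 1.39 and 1.74 CPM in number 1 and at 179 and 937 CPM in number 2 (270-fold, log2 fold change -8.08 ± 0.55 SE, adjusted p = 3.08e-06). RSAD2, which encodes the antiviral enzyme viperin, had 1 count in each library of number 1 and was at 48.3 and 71.8 CPM in number 2 (1191-fold, interval 330 to 9831). BST2, which encodes tetherin, was at 0.924 and 0.368 CPM in number 1 and at 101 and 179 CPM in number 2 (203-fold). The members higher in number 1 were XAF1 (4.94 and 7.26 CPM against 0.127 and 0.549 CPM) and MX2 (0.646 and 1.74 CPM against 0.253 and 0.165 CPM).

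Antigen presentation genes were called in both directions. Of 22 tested, 6 were higher in number 2, 5 were higher in number 1 and 11 were not called, and this balance turned under 5 of the alternatives. MICB, a stress-induced ligand of natural killer cells, was at 73.3 and 45.2 CPM in number 1 and at 8.91 and 11.7 CPM in number 2 (5.64-fold higher in number 1), whereas B2M, which encodes beta-2-microglobulin, was at 445 and 527 CPM against 935 and 1417 CPM. CIITA, the master regulator of class II genes, was at 0.416 and 0.316 CPM in number 1 and at 11.6 and 29.1 CPM in number 2 (49.2-fold), and HLA-DRA at 0.185 and 0.158 CPM against 5.70 and 7.90 CPM. Of 34 tested cytokines and chemokines, 14 were higher in number 2 and 12 in number 1, a balance that turned with any library but the control library of number 2 left out (10 to 14 members higher in number 1, 9 to 13 higher in number 2). Of the 34, 5 had 3 counts or fewer in each library of number 2 and 2 in each library of number 1, which fixes their direction. TNF was at 13.9 and 27.7 CPM in number 1 with no count in number 2, and IL6 was at 8.27 and 38.2 CPM in number 1 with 3 counts in number 2 (311-fold, interval 106 to 1509). TNFSF10, the death ligand TRAIL, was at 1.57 and 0.736 CPM in number 1 and at 91.6 and 249 CPM in number 2, and CCL5, a T cell chemokine, at 7.98 and 31.3 CPM in number 2. The leukocyte markers other than PTPRC summed to 25.4 and 22.5 CPM in number 1 and to 1.06 and 1.59 CPM in number 2. CSF1R made up most of this sum (20.7 and 15.7 CPM against 0.169 and 0.165 CPM), and the 3 of 12 markers that were tested, CSF1R, ITGAM and CD8A, were called higher in number 1. The endothelial markers summed to 4.48 and 6.26 CPM in number 1 and to 30.8 and 45.4 CPM in number 2, where CDH5 took 25.6 and 41.6 CPM. Fewer cells of a type and less RNA per cell cannot be told apart in such bulk libraries, and the part of other cells in these results was not tested.

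Enzymes of detoxification were higher in number 2 for many but not all members. Of 38 tested target genes of NRF2, the transcription factor of the oxidative stress response, 18 were higher in number 2 and 5 were higher in number 1. Of the 38, 3 had 3 counts or fewer in each library of number 1, which fixes their direction. AKR1C2, an aldo-keto reductase, was at 0.369 and 0.210 CPM in number 1 and at 668 and 1126 CPM in number 2 (2874-fold, log2 fold change -11.49 ± 0.45 SE, adjusted p = 3.07e-16). AKR1C2 shares long stretches of sequence with its neighbouring family members, so its share of their reads is uncertain. ALDH3A1, an aldehyde dehydrogenase of corneal and oral epithelium, was at 2.63 and 2.52 CPM in number 1 and at 617 and 2074 CPM in number 2 (436-fold), and the glutathione peroxidase GPX2 had 3 counts in number 1 and was at 39.8 and 61.5 CPM in number 2 (668-fold, interval 229 to 3238). FTL, the ferritin light chain, was higher in number 1, at 4331 and 4256 CPM against 333 and 739 CPM (8.65-fold, log2 fold change 3.11 ± 0.32 SE, adjusted p = 5.25e-08). HMOX1 (19 and 33.0 CPM against 2.07 and 7.95 CPM) and TXNRD1 (872 and 1365 CPM against 274 and 578 CPM) were also higher in number 1. Of 32 tested genes of aldehyde, retinoid and xenobiotic metabolism, 10 were higher in number 2 and 7 in number 1, including ALDH1A1 at 36.8 and 52.3 CPM in number 2 against 0.185 and 0.473 CPM, and ALDH7A1 at 28.1 and 31.6 CPM in number 1 against 0.0845 and 0.165 CPM.

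**Figure D3:**
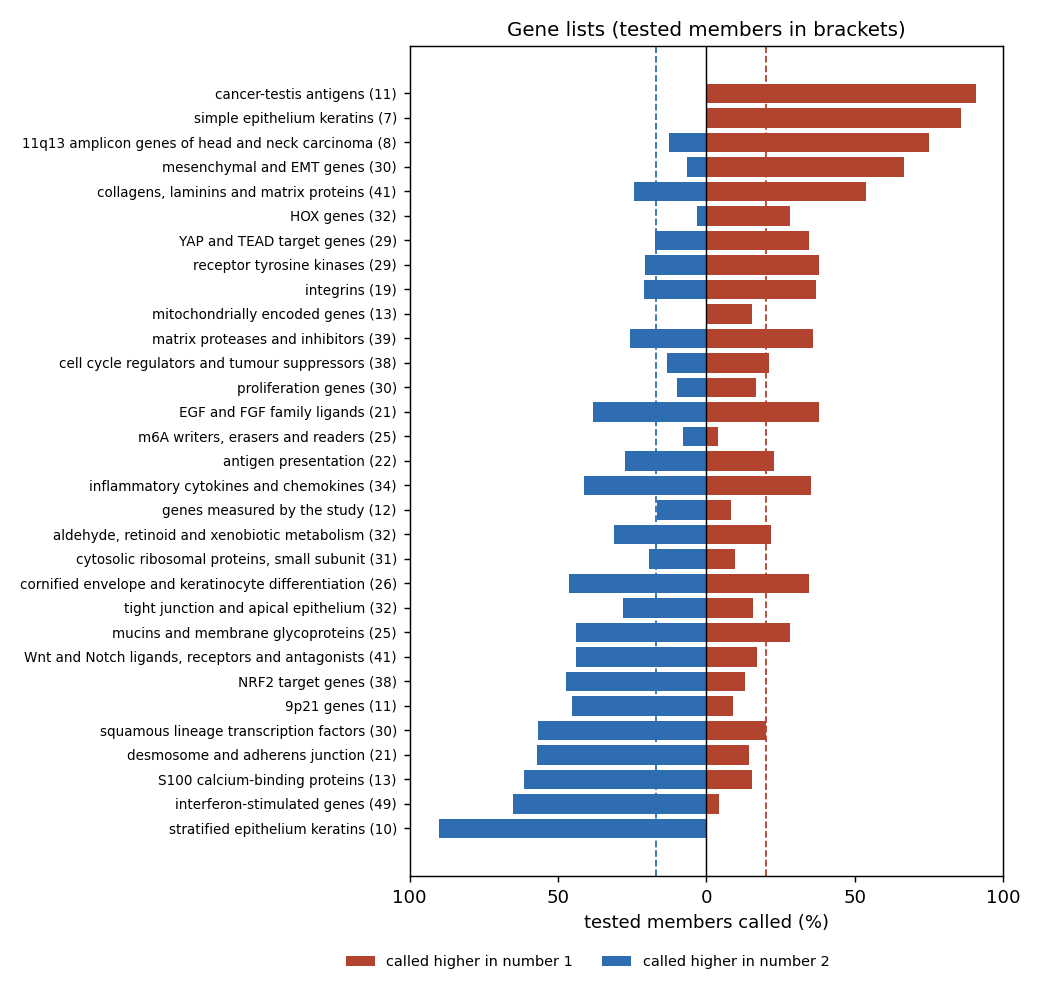
Percentage of the tested members of each gene list with at least 7 tested members, cell type marker lists left out, that were called higher in number 1 (red, to the right) or in number 2 (blue, to the left), with the number of tested members in brackets and dashed lines at the 20.2% and 17.0% of all tested genes. Among the lists drawn, cancer-testis antigens reach furthest to the right and stratified epithelium keratins furthest to the left.

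Cancer-testis antigens are proteins of the germ line that are silent in most adult tissues, and several were found in number 1 alone. Of 42 listed, 31 were too low to be tested, and 10 of the 11 tested had 3 counts or fewer in each library of number 2. These 10 passed the filter on low counts through number 1 alone and had to differ, so the 10 members called higher in number 1 are given as levels and not as support for the list, and none was left with at least 10 counts required in every library. MAGEA12 (103 and 81.1 CPM), CTAG2 (50.7 and 34.1 CPM), MAGEA4 (23.5 and 30.6 CPM) and MAGEA11 (20.6 and 24.7 CPM) had no count in number 2. MAGEA3 was at 208 and 129 CPM in number 1 with 1 count in each library of number 2, but MAGEA3, MAGEA6, MAGEA12 and MAGEA2 are near-identical copies, so the split of reads between them is uncertain. Among the tested HOX genes, which set position along the body axis, 9 of 32 were higher in number 1, 1 was higher in number 2 and 22 were not called. The share called was 31.2%, against 37.3% of all tested genes. Of the 32, 4 had 3 counts or fewer in each library of number 2, which fixes their direction. The balance turned with at least 10 counts required in every library. HOXB9 was at 29.2 and 48.2 CPM in number 1 and at 0.296 and 1.65 CPM in number 2, and HOXB13 at 3.93 and 3.58 CPM with no count in number 2.

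A stricter class held genes at 5 CPM or more in both libraries of a number and at 3 counts or fewer in each library of the other. It had 209 genes for number 1 and 63 for number 2, all of them called, and the same contrast chose them. Of the 209, 28 (13.4%) lie on chromosome X, against 3.10% of all tested genes and 2 (3.17%) of the 63. These 28 included 9 genes of the MAGE families and ARMCX3 (31.5 and 36.1 CPM), ARMCX4 (9.33 and 7.10 CPM) and ARMCX6 (16.2 and 17.0 CPM), members of a cluster of armadillo-repeat genes. Of 14 tested genes with MAGE names on chromosome X, 12 had 3 counts or fewer in each library of number 2, as had 4 of 6 with ARMCX names. Such genes were tested through number 1 alone, which fixes the direction of their calls. The others, MAGED2 (82.0 and 108 CPM against 25.7 and 62.4 CPM), MAGEE1 (10.1 and 7.94 CPM against 1.82 and 1.26 CPM), ARMCX5 (12.7 and 10.4 CPM against 4.77 and 3.57 CPM) and ARMCX5-GPRASP2 (1.99 and 2.84 CPM against 0.845 and 0.658 CPM), were also called higher in number 1. The MAGE and ARMCX groups on chromosome X were chosen after their values were seen, and some of the 14 are also in the cancer-testis list.

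Shares of called genes differed between chromosomes. On chromosome 3, 33.1% of 833 tested genes were higher in number 2 and 12.7% were higher in number 1. On chromosome 19, 30.9% of 1023 were higher in number 1 and 9.87% in number 2, on chromosome 18 the shares were 36.5% and 10.6% of 208, and on chromosome X 32.4% and 12.4% of 490. In 281 consecutive windows of 50 tested genes, the median log2 fold change ran from -1.11 to 2.35, with quartiles at -0.23 and 0.26. The window with the lowest median ran from TBC1D23 to CCDC191 (chr3:100260992-114056613) and had 31 genes higher in number 2 and 5 higher in number 1. Its median was -1.11 in the control pair and -1.09 in the rapamycin pair. The window from SNX4 to MRPL3 on the same chromosome (chr3:125446650-131502971) had a median of -1.01, as did the first window of chromosome 9, which ends with HACD4 (chr9:14513-21031640).

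**Figure D4:**
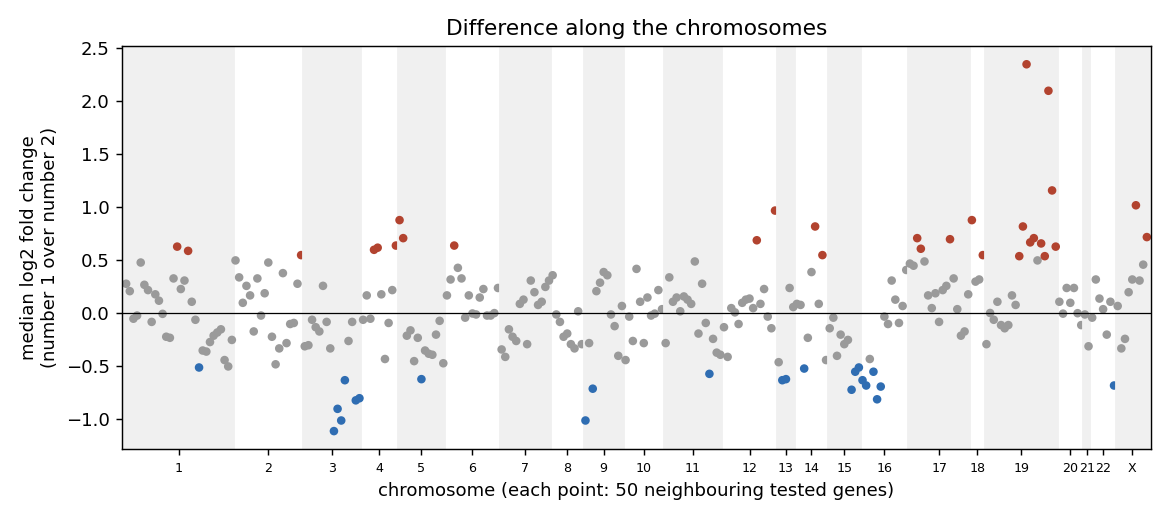
Median log2 fold change (number 1 over number 2) in 281 windows of 50 neighbouring tested genes, in chromosome order, with windows above 0.5 in red and below -0.5 in blue. The 3 highest windows lie on chromosome 19, with medians of 2.35, 2.1 and 1.16, and the lowest lies on chromosome 3.

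The 3 windows with the highest medians all lie on chromosome 19 and are rich in zinc finger genes. Most of these encode DNA-binding repressors with C2H2 zinc fingers, many with a KRAB domain, and sit in clusters of related copies. The window from ZNF529 to SAMD4B (chr19:36543613-39390764) had 34 genes higher in number 1 and 4 higher in number 2 (median 2.35), that from VRK3 to ZNF816 (chr19:49976468-52962881) had 31 and 1 (median 2.1), and that from ZNF160 to ZNF628 (chr19:53066614-55484487) had 27 and 1 (median 1.16). After these windows were seen, the genes with ZNF names were counted. Of 56 tested ZNF genes in the 3 windows, 48 were higher in number 1 and 0 were higher in number 2. The windows were chosen for this same difference, and 42 of the 56 had 3 counts or fewer in each library of number 2 and so were tested through number 1 alone, which fixes their direction. The count is therefore a description of the windows, with no comparison drawn from it. Elsewhere on chromosome 19, 45 of 152 tested ZNF genes were higher in number 1 (29.6%) and 5 in number 2, and on other chromosomes 38 and 35 of 252 were. Among genes of chromosome 19 without ZNF names, 223 of 815 were higher in number 1 (27.4%) and 96 in number 2. The 815 include genes inside the 3 windows, which were chosen for this same difference, so no comparison of these shares is drawn. ZNF468 was at 34.9 and 26.4 CPM, ZNF331 at 20.1 and 38.5 CPM, ZNF160 at 24.2 and 25.1 CPM and ZNF528 at 17.3 and 31.8 CPM in number 1, and all 4 had no count in number 2. These copies share sequence, so reads may be split between them, but no count was assigned to any of these 4 in number 2.

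Genes of 2 regions that are often altered in head and neck carcinoma were counted from lists. Of 8 tested genes of the 11q13 region, 6 were higher in number 1 and 1 in number 2. CCND1, which encodes cyclin D1, was at 2422 and 2803 CPM in number 1 and at 277 and 226 CPM in number 2 (10.4-fold, log2 fold change 3.38 ± 0.29 SE, adjusted p = 3.73e-10), and PPFIA1 at 477 and 476 CPM against 133 and 84.9 CPM. ANO1, a chloride channel of the same region, was at 4.53 and 5.42 CPM in number 1 and at 43.3 and 13.3 CPM in number 2. Of 11 tested genes of 9p21, 5 were higher in number 2 and 1 in number 1. CDKN2A, which encodes the cell cycle inhibitor p16, was at 1.15 and 0.473 CPM in number 1 and at 17.0 and 23.6 CPM in number 2 (25-fold), and its neighbour MTAP at 22.2 and 17.4 CPM against 65.7 and 50.7 CPM. HACD4 was at 6.6 and 6.99 CPM in number 1 and had 1 count in number 2. DNA copy number was not measured in these data.

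Beside the 37.3% of all tested genes that were called, the following groups had these counts. Of 30 tested proliferation genes, 5 were higher in number 1, 3 were higher in number 2 and 22 were not called, and with a library left out 0 to 7 and 0 to 3 were, with the balance turned in 2 of these fits. The thymidylate synthase TYMS was at 282 and 173 CPM against 139 and 52.8 CPM. BIRC5 (187 and 71.2 CPM against 93.1 and 48.1 CPM, log2 fold change 0.79 ± 0.26 SE) and PLK1 (169 and 50.2 CPM against 192 and 121 CPM, log2 fold change -0.72 ± 0.28 SE) were called. Their libraries overlapped across the treatments, but within each treatment BIRC5 was higher in number 1 and PLK1 was higher in number 2. Of 38 tested cell cycle regulators and tumour suppressors, 8 were higher in number 1, 5 in number 2 and 25 were not called (34.2% called), with CDKN1A, which encodes the inhibitor p21, at 142 and 357 CPM against 14.8 and 49.8 CPM. Of 13 mitochondrially encoded genes 2 were called, and of 31 small-subunit ribosomal protein genes 9 were called (29.0%), 3 higher in number 1 and 6 higher in number 2. Of 25 tested mucins and membrane glycoproteins, in contrast, 11 were higher in number 2 and 7 in number 1, with MUC4 at 6.83 and 15.4 CPM against 601 and 1464 CPM (91.6-fold) and L1CAM at 205 and 289 CPM against 3.46 and 3.62 CPM (68.5-fold).

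Few members were called in the m6A machinery, which writes, removes and reads the RNA mark that the study set out to follow. Of 25 tested members, 1 was higher in number 1, 2 were higher in number 2 and 22 were not called, a share of 12% against 37.3% of all tested genes. IGF2BP1, an m6A reader of fetal tissue, was at 138 and 102 CPM in number 1 and at 24.2 and 14.5 CPM in number 2 (6.32-fold, log2 fold change 2.66 ± 0.28 SE, adjusted p = 1.73e-08). YTHDC2, a reader with helicase activity, was at 16.2 and 17.8 CPM against 45.5 and 34.4 CPM (2.33-fold higher in number 2, adjusted p = 0.0027, and 0.0538 with treatment left out of the model), and PCIF1, which methylates the first base after the cap, was at 37.7 and 40.5 CPM against 55.5 and 72.5 CPM (adjusted p = 0.0487). PCIF1 was no longer called under any alternative but the fit without the robust step (adjusted p 0.0550 to 0.650), and YTHDC2 was also not called with any library but the rapamycin library of number 2 left out (adjusted p 0.103 to 0.345). METTL14, a subunit of the m6A writer, was at 19.2 and 20.1 CPM in number 1 and at 20.9 and 19.3 CPM in number 2 (log2 fold change -0.03 ± 0.33 SE, adjusted p = 0.953). METTL3, its catalytic partner, was at 57.4 and 43.2 CPM against 36.7 and 35.9 CPM and was not called (0.46 ± 0.28 SE, adjusted p = 0.219). The scaffold of the cap-binding complex EIF4G1 was at 1548 and 957 CPM in number 1 and at 2032 and 1019 CPM in number 2, with overlapping libraries (-0.24 ± 0.26 SE, adjusted p = 0.509). MAP1LC3B, the autophagosome protein LC3B, was at 133 and 226 CPM in number 1 and at 46.4 and 63.5 CPM in number 2 (3.19-fold, log2 fold change 1.67 ± 0.26 SE, adjusted p = 8.05e-06). GAPDH, often used as a reference gene, was 1.85-fold higher in number 2, at 5282 and 3505 CPM against 8333 and 7607 CPM (adjusted p = 0.0115).

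The RNA calls were set beside the m6A peak lists that the authors deposited for HSC3, which carries number 1 in the titles of the m6A libraries, and for CAL33, which carries number 2. Of the 3203 genes higher in number 1, 134 (4.18%, 95% Wilson interval 3.54 to 4.93) had a peak in both HSC3 lists and in neither CAL33 list, and 19 (0.593%, 0.380 to 0.925) had the reverse. Of the 2696 genes higher in number 2, 23 (0.853%, 0.569 to 1.28) were in the HSC3 lists alone and 71 (2.63%, 2.09 to 3.31) in the CAL33 lists alone. Genes that were not called had shares of 2.01% and 0.997%. The intervals cover counting error over genes only, since genes are not replicates and each list rests on 1 pair of libraries.

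**Figure D5:**
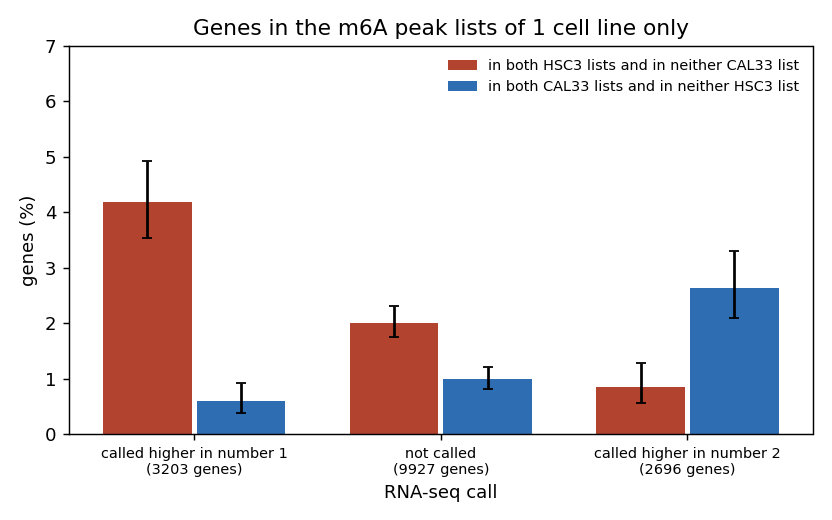
Percentage of genes with a peak in both m6A peak lists of a cell line and in neither list of the other, by RNA-seq call, with 95% Wilson intervals over genes. Of the genes higher in number 1, 4.18% were in the HSC3 lists alone and 0.593% in the CAL33 lists alone, and of the genes higher in number 2, 0.853% and 2.63%.

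Among the 209 genes that were on only in number 1, 37 and 40 were in the HSC3 control and rapamycin lists and 4 and 5 in the CAL33 lists. Among the 63 that were on only in number 2, 3 and 0 were in the HSC3 lists and 7 and 8 in the CAL33 lists. For scale, the control and rapamycin lists held 3003 and 2978 genes for HSC3 and 2720 and 2401 for CAL33, while 15826 genes were tested in RNA. The 2 classes were chosen for being at or near 0 in the other number, so no comparison is drawn from them. Of the 56 ZNF genes of the 3 windows of chromosome 19, 23 and 15 had a peak in the HSC3 control and rapamycin lists and 5 and 3 in the CAL33 lists. Of the 252 ZNF genes on other chromosomes, 75 and 85 had a peak in the HSC3 lists and 71 and 64 in the CAL33 lists. The 3 windows were chosen for the RNA difference, and 42 of their 56 ZNF genes had 3 counts or fewer in each library of number 2. No comparison is therefore drawn between these ZNF groups. The RNA-seq and m6A libraries of a number are separate libraries whose shared source the labels do not settle, and the part of RNA level in the peak lists was not tested.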

How the data were processed

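RNA-seq counts of 4 libraries were compared by library number. The deposited values are raw counts of reads on each Ensembl gene, not normalized by the authors. The submitters' processing notes name cutadapt 2.5, HISAT2 2.1.0, featureCounts 1.6.3, HOMER 4.10.4 and hg38, while the count table is named for HTSeq, so the counter is not settled. The libraries came from a stranded kit, but the strand setting of the counting is not given in the sources used here, and reads of antisense partners cannot be told apart. The authors also deposited 4 m6A peak lists, each from 1 immunoprecipitated library and its input, with a fold enrichment ratio, a log10 p-value, a log10 false discovery rate and a score per peak. A gene was counted as listed where a peak carried its name. Depth of the m6A libraries is unknown here.

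Symbols were found for 57532 of 58302 identifiers (98.7%), and positions were taken from RefSeq. Genes were kept by filterByExpr with number as the group, libraries were normalized by TMM (factors 0.973 to 1.03), and number was tested with treatment as a block in edgeR 4.0.16 (R 4.3.3, limma 3.58.1) by the robust quasi-likelihood test, with Benjamini-Hochberg adjustment at 0.05. The 4 libraries leave 1 residual degree of freedom per gene, with the spread shared across genes. The common dispersion was 0.061. Log2 differences within a treatment used a prior count of 2. The block was kept because both numbers hold 1 library of each treatment. The script was tested on simulated counts. The alternatives were DESeq2 1.42.0, limma-voom, upper-quartile and total-count scaling, no filter, at least 10 counts in every library, no robust step, no treatment block, each library left out, a test against a 2-fold difference (glmTreat), and peaks with a log10 false discovery rate of -2 or lower. Wilson and Poisson intervals came from scipy 1.17.1 (Python 3.11.15).

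The 36 gene lists, the members and the tests were chosen with earlier results of these data known. Named genes were the 12 largest fold changes in each direction among called protein-coding genes with an average of at least 4 log2 CPM and libraries that do not overlap, up to 4 called members of each list in each direction, the 2 most abundant members where fewer than 2 were called, and the genes that the study measured. Genes outside this rule are marked as chosen after their values were seen.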

Additional observations from a re-analysis of the deposited data

Results flagged for a closer look

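For 6 named genes, the libraries of number 1 lay above those of number 2 in 1 treatment and below them in the other. All 6 were uncalled between the numbers, with levels that overlapped, and the difference between the treatments was not tested. The log2 difference, number 1 minus number 2, was -0.23 in the control pair and 0.25 in the rapamycin pair for WTAP, a subunit of the m6A writer complex, and 0.22 and -0.36 for the m6A eraser ALKBH5. It was -0.12 and 0.06 for METTL14, -0.07 and 0.18 for the reader YTHDF2, 0.10 and -0.04 for the helicase EIF4A1, and 0.29 and -0.39 for the melanosome protein PMEL. EIF4A1 was at 5.91 and 8.05 CPM in number 1 and at 5.49 and 8.28 CPM in number 2. EIF4A1 overlaps a readthrough gene with SENP3, so its share of the reads of both is uncertain.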

How the results depend on the processing

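The counts of called genes stayed within 1.5 times the reported values with DESeq2 (4273 genes), limma-voom (5915), upper-quartile (5854) or total-count scaling (5745), no filter (6157) and no robust step (5901). With at least 10 counts in every library, which removes the genes at 0 in a number, 3927 genes were called, 1974 of them higher in number 1, and 3011 differed at least 2-fold. With no treatment block, 3057 genes were called, 1814 higher in number 1 and 1243 higher in number 2, and all 3057 differed at least 2-fold. Against a 2-fold difference, glmTreat called 2983 genes. With each library left out in turn, number alone in the model and the lone library assumed to vary like the others, between 2232 and 4504 genes were called, 1372 to 2436 higher in number 1 and 735 to 2093 higher in number 2, and 2232 to 4504 differed at least 2-fold. No gene called in the full fit was called in the other direction under these settings, glmTreat not counted. The fits with a library left out also lack the treatment block, so their counts are to be read beside the 3057.

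Of 224 called named genes, 46 were tested but not called under at least 1 setting that kept all libraries, and more were with a library left out. The 46 do not include genes lost only because a filter removed them. With at least 10 counts required in every library, 121 of the 235 named genes kept their result, 5 were no longer called and 1 changed sign. The rest were removed by that filter and not tested. The sign changed with a library left out for BIRC5 (range -0.01 to 1.44) and PLK1 (-1.66 to 0.12), where a single treatment of number 1 then stood against both of number 2, and for uncalled genes. With a library left out the uncalled genes ranged over -0.35 to 0.36 for WTAP, -0.75 to 0.52 for ALKBH5, -0.11 to 0.04 for METTL14, -0.39 to 0.27 for PMEL, -0.72 to 0.31 for EIF4G1, -0.24 to 0.32 for EIF4A1, -0.09 to 0.20 for YTHDF2 and -0.13 to 1.52 for COL1A1, which was called without the rapamycin library of number 2 (adjusted p = 0.0205). With all libraries, WTAP was at -0.002 with no filter, -0.002 with limma-voom and -0.03 with no treatment block, ALKBH5 was at 0.02 with no treatment block, METTL14 was at 0.03 with upper-quartile scaling, 0.01 with total counts and 0.01 with at least 10 counts, and PMEL was at 0.01 with upper-quartile scaling. The causes were not tested.

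Counts of list members were checked under the same settings. The balance between members higher in number 1 and in number 2 turned under at least 1 of them for inflammatory cytokines, antigen presentation, HOX genes, proliferation genes, the m6A machinery, the genes measured by the study, and the endothelial and epithelial marker lists. HOX genes turned with at least 10 counts required in every library.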
